A study of Homo sapiens with 18 samples.

Results

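The expression of 45 genes of the G2 phase and mitosis was followed in 3 human pancreatic cancer cell lines after siRNA against either of 2 histone methyltransferase genes. The genes were a list of cell cycle genes given by symbol, without a threshold on their values, but drawn up with earlier results of these data known. All 45 were matched from symbol to identifier among the 63677 identifiers of the count tables, and all 45 were among the 21028 genes that passed the filter on low counts. The lines PANC1, COLO357 and SUIT2 are established lines of pancreatic ductal adenocarcinoma. In each line, RNA was taken 48 h after transfection from 6 libraries. These were a lone Control siRNA library, KMT2D siRNA1 and siRNA2, and KMT2C siRNA1 to siRNA3. No genotype or further treatment of the lines was given in the labels. The design had 18 libraries, with 3 controls, 6 for KMT2D and 9 for KMT2C, and each comparison with control rests on a single control library in each line. The labels do not state separate cultures for the libraries, so the error behind each p-value is the scatter among libraries, which may be partly technical and spans siRNAs and lines.

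A cell enters mitosis when CDK1, bound to B-type cyclins, is activated by CDC25 phosphatases, and the genes for the mitotic machinery are transcribed together late in the cycle. Their promoters are known for CCAAT boxes, which bind NF-Y, and for the cell cycle genes homology region (CHR), which binds the MuvB complex. MuvB acts with B-MYB and FOXM1 as an activator, and with p130 and E2F4 in the DREAM complex as a repressor. KMT2C and KMT2D are catalytic subunits of complexes that place monomethylation on lysine 4 of histone H3, mainly at enhancers.

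Depth was 14205640 to 32115894 gene counts per library, and the members together took 0.741% to 1.59% of them. KMT2D mRNA stood at 34.8% to 84.7% of the own line's control in its 6 libraries, with PANC1 the least reduced (79.9% and 84.7%). KMT2C mRNA stood at 43.2% to 116% of control in its 9 libraries, below 100% in 8. The exception was the library labelled PANC1 KMT2C siRNA2, where KMT2D stood at 102 CPM (27.4 CPM in the control). KMT2D was above control in every other KMT2C library except SUIT2 KMT2C siRNA1 (66.7 CPM, control 67.3). It reached 66.9 CPM in COLO357 KMT2C siRNA3 (control 32.2) and 106 CPM in SUIT2 KMT2C siRNA2. KMT2C in turn stood at 70.6 and 140 CPM with KMT2D siRNA1 and siRNA2 in PANC1 (control 51). It stood at 82.6 and 92.1 CPM in COLO357 (control 89.1) and at 135 and 215 CPM in SUIT2 (control 143). The share of read pairs in no annotated feature was 7.49% to 16.46% in the controls, 8.65% to 13.25% with KMT2D siRNA and 8.9% to 30.36% with KMT2C siRNA. Summed epithelial marker levels were 813 to 1200 CPM (counts scaled to a fixed TMM-normalised library total) in PANC1 and 2930 to 6840 CPM in the other lines. All 5 leukocyte markers were under 1 CPM in every library of PANC1 and of COLO357, and 3 of 5 in SUIT2. Of 5 fibroblast markers, DCN and LUM were under 1 CPM in every library, and COL1A1 made up most of the sum. Their sum was 2.55 to 59.5 CPM in the controls, 1.23 to 180 CPM with KMT2D siRNA and 2.45 to 150 CPM with KMT2C siRNA, and its part in the results was not tested.

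The promoters of 4 members are shown: CDC25B, CENPA and TOP2A because they were the members called with KMT2D siRNA over both siRNAs, and PRC1 because it had the largest change with KMT2D siRNA2. Each runs from 250 bases before to 50 after the annotated start, 5′ to 3′ in the direction of the gene, from RefSeq on GRCh38.p14. Capitals mark CHR hexamers (TTTGAA or TTCGAA) and CCAAT boxes, each searched on both strands. CDC25B lies at chr20:3796060-3796359 on the plus strand, and of its 4 entries in the table the one with most matches is shown. CENPA lies at chr2:26785806-26786105 on the plus strand, TOP2A at chr17:40417847-40418146 on the minus strand and PRC1 at chr15:90994486-90994785 on the minus strand.
CDC25B: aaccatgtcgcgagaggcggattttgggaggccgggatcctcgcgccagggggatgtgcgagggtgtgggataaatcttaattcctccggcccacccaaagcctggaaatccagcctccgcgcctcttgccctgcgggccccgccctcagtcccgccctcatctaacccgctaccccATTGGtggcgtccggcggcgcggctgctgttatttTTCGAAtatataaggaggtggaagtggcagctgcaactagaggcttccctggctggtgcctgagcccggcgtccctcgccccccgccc
CENPA: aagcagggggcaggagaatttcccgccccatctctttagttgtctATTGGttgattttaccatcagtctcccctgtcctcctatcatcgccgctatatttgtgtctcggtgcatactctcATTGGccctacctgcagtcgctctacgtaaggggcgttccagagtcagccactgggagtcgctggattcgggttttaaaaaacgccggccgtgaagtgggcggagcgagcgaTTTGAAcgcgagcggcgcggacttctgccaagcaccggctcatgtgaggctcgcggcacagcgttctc
TOP2A: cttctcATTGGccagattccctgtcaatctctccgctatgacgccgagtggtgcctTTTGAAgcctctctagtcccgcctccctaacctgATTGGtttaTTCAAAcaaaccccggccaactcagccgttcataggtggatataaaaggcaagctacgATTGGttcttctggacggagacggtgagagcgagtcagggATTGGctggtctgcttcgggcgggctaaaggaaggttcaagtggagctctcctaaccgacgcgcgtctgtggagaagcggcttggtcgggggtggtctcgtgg
PRC1: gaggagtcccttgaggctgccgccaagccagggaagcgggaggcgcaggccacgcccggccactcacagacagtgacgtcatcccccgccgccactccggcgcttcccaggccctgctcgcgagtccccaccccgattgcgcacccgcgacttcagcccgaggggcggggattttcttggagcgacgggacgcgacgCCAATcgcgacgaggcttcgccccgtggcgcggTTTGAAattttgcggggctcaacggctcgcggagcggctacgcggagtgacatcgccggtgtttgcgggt
CENPA and PRC1 each held a single CHR hexamer close before the start, its first base at position -18 and -20. In CDC25B it lay at -38. TOP2A held 2 CHR hexamers farther away, at -194 and -151, and 4 CCAAT boxes. The letters mark matches and do not show that a factor was bound.

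A promoter was found for 39 of the 45 genes, with 50 entries because 7 genes had more than 1. A CHR hexamer was present in 34 of the 50 (68.0%), against 16.4% of all 35116 human promoters in the table. CCAAT boxes were present in 36 (72.0%), against 34.6% of all. Both motifs were present in 27 (54.0%), against 6.4% of all, and 2 of the matches overlapped. A CHR hexamer that started within 100 bases before the start was found in 20 of the 50 entries (40.0%), against 5.2% of all. Only CENPE and KIF2C, a kinesin at kinetochores and a microtubule-depolymerising kinesin, had neither motif in any of their entries.

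**Figure D1:**
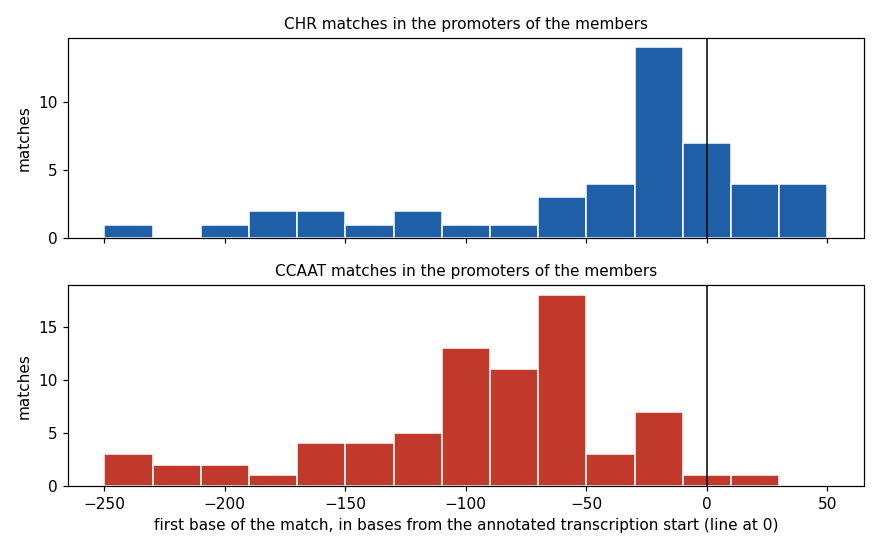
Positions of CHR hexamers (top) and CCAAT boxes (bottom) in the 50 promoter entries of the 39 matched genes, in bases from the annotated start, with the number of matches per 20 bases on the vertical axis. The CHR matches are most frequent just before the start and the CCAAT matches farther upstream.

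With KMT2D siRNA the mitotic mRNAs were on balance below control, and 3 of the 45 fell in the test over both siRNAs and all lines: CENPA, CDC25B and TOP2A. This was 3 of 45 members against 0.504% of all tested genes called lower in the same comparison. In the fit 43 of 45 members had an estimate below 0, with a median log2 fold change of -0.29, beside a median of 0.02 over all 21028 genes. DESeq2 called 7 members lower, adding AURKB, BUB1B, KIF2C and NCAPH, with 660 genes called in all, where edgeR called 106 lower and 147 higher. With the siRNA as a random block in limma-voom, CENPA was the 1 member called, among 77 genes in all. In whole-population RNA, fewer cells in late cycle and less mRNA per cell cannot be told apart.

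CENPA encodes the histone H3 variant that marks the centromere. In PANC1 it was at 62 CPM with control siRNA and at 29.7 and 28.6 CPM with KMT2D siRNA1 and siRNA2. COLO357 had 25.6, 21.1 and 13.5 CPM in the same order, and SUIT2 had 39.5, 18.9 and 16 CPM. All 6 KMT2D libraries were therefore below their own control, with COLO357 siRNA1 the nearest to it. The log2 fold change was -0.95 ± 0.16 (SE), a 1.93-fold fall, with an adjusted p of 0.00313. Without the SUIT2 control library the call was lost (-0.88, adjusted p = 0.0723), and it held in the other 17 fits that left out 1 library.

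CDC25B, the phosphatase that starts CDK1 activation, was at 61.3 CPM in the PANC1 control and at 47.8 and 43.8 CPM with KMT2D siRNA1 and siRNA2. In COLO357 it was at 55.2, 31.2 and 26.6 CPM, and in SUIT2 at 51.9, 25.5 and 30.1 CPM. Again each KMT2D library was below its control, and PANC1 showed the smallest drop in CPM ratio. The fall was 1.68-fold (log2 -0.75 ± 0.15 (SE), adjusted p = 0.0116). The adjusted p was 0.0866 without the COLO357 control and 0.114 without the SUIT2 control.

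TOP2A, the topoisomerase that disentangles sister chromatids, is the most abundant member per length in the controls (182 CPM per kb of exon, mean of 3 controls). With control, KMT2D siRNA1 and siRNA2, PANC1 had 1760, 671 and 574 CPM. COLO357 had 1020, 833 and 553 CPM, and SUIT2 had 746, 300 and 404 CPM. The control was above both KMT2D libraries in every line. The fall was 2.05-fold (log2 -1.03 ± 0.23 (SE), adjusted p = 0.03). In 7 of the 18 fits that left out a library the adjusted p was above 0.05: 0.244 without the PANC1 control, 0.0903 and 0.0946 without the COLO357 and SUIT2 controls, 0.0599 and 0.0633 without PANC1 KMT2D siRNA1 and siRNA2, and 0.0531 and 0.0599 without COLO357 and SUIT2 KMT2D siRNA2.

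**Figure D2:**
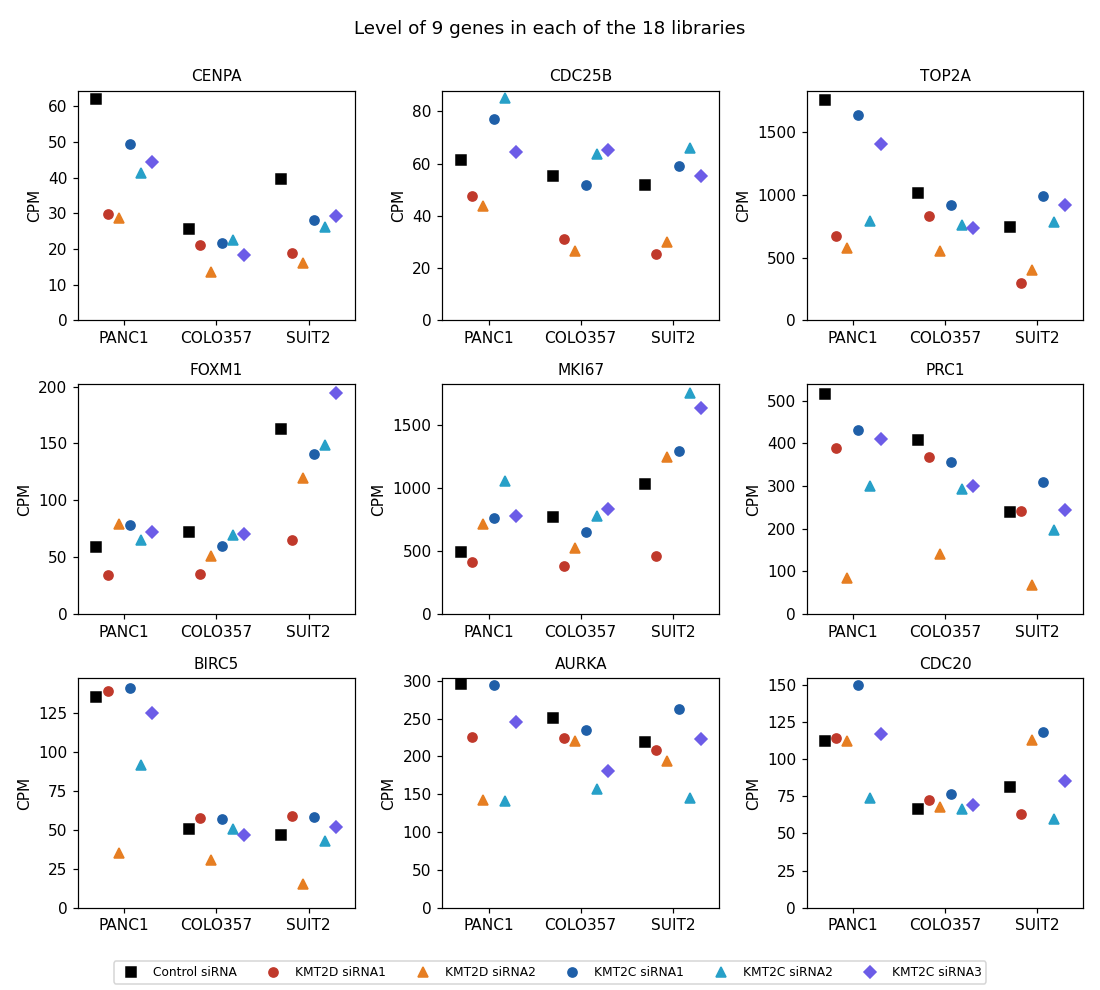
Level in CPM of 9 genes in each of the 18 libraries, 1 point per library, by line (horizontal axis) and siRNA (symbol). CENPA, CDC25B and TOP2A lie below the own control in all KMT2D libraries, and PRC1 has its lowest value in each line with KMT2D siRNA2 (85.2, 141 and 68.2 CPM).

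By role, the estimates were below 0 in nearly every group, but the tests passed in few. Among the cyclins and entry factors 1 of 7 fell (CDC25B), with a median log2 fold change of -0.35 for the group. Cyclin B2 (CCNB2) stood at -0.03, CDK1 at -0.19 and cyclin A2 (CCNA2) at -0.35 (adjusted p = 0.439). Of the 6 mitotic kinases none was called, with a median of -0.36. AURKB, the kinase of the chromosomal passenger complex, came nearest (-0.71 ± 0.18 (SE), adjusted p = 0.0548) and was lower than control in all 6 libraries. Of the complex's other subunits, INCENP had a log2 fold change of -0.27 and an adjusted p of 0.463.

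Among the 5 kinetochore genes CENPA alone was called. NDC80 and NUF2, microtubule-binding subunits of the outer kinetochore, had estimates of -0.02 and -0.12. The 4 genes of the checkpoint and of the anaphase-promoting complex had the median nearest to 0, at -0.07, and PTTG1 (securin) had the smallest p of them (-0.37, adjusted p = 0.457). Of 7 kinesins, 0 were called, and KIF2C came nearest (-0.61 ± 0.16 (SE), adjusted p = 0.067). The 6 spindle proteins had a median of -0.32, with ASPM, a spindle pole protein, at -0.54 (adjusted p = 0.165). ANLN, the anillin scaffold of the contractile ring, was at -0.54 (adjusted p = 0.253). In the mitotic chromosome group TOP2A was called, and the condensin subunit NCAPH reached -0.52 (adjusted p = 0.087).

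Over single libraries, 17 of the 45 members were below the own control in all 6 KMT2D libraries, against 6.33% of all tested genes. They were CCNA2, CDC25B, PLK1, AURKA, AURKB, BUB1, BUB1B, CENPA, PTTG1, KIF2C, KIF20B, ASPM, ECT2, ANLN, TOP2A, NCAPH and SMC4. No member was above control in all 6, against 1494 of 21028 genes. The count of members below control was 40 and 42 in PANC1 (siRNA1 and siRNA2), 34 and 44 in COLO357, and 31 and 29 in SUIT2. The median log2 change of the members was -0.36 and -0.58, -0.13 and -0.38, and -0.18 and -0.17 in the same order, while that of all genes lay between 0 and 0.01. KMT2D mRNA stood, in that order, at 79.9% and 84.7%, 43.5% and 45.5%, and 34.8% and 65.8% of control. Its relation to the medians was not tested.

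**Figure D3:**
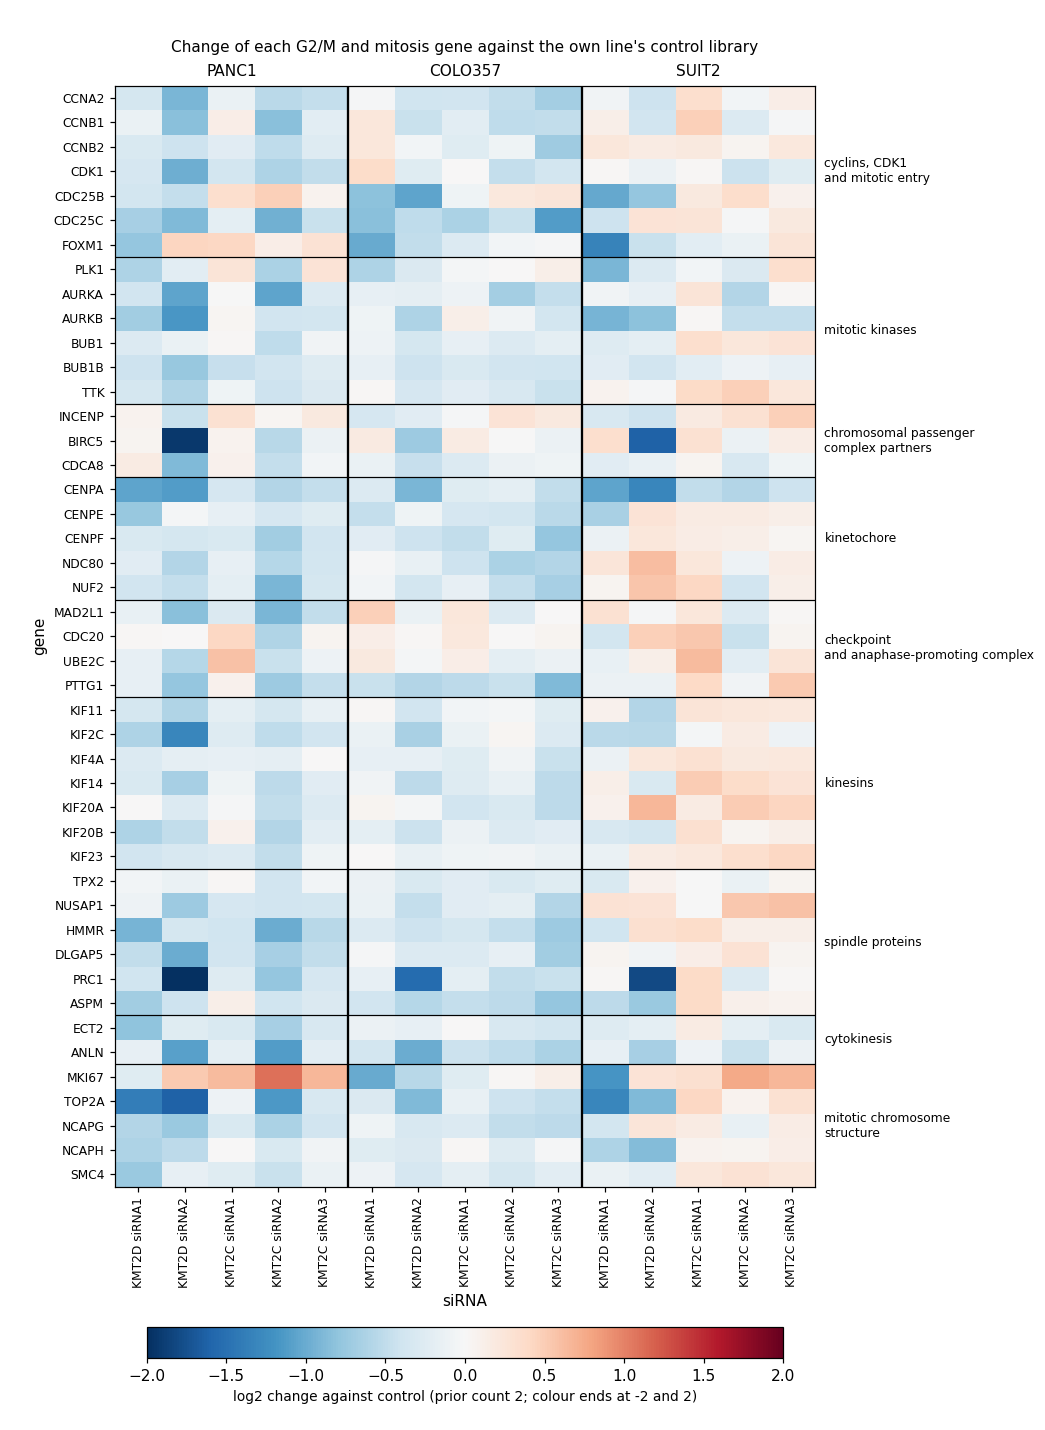
Log2 change of each of the 45 genes (rows, grouped by role) against the own line's control in each of the 15 knockdown libraries (columns), with blue for lower and red for higher. Colour ends at -2 and 2. CENPA and TOP2A are blue in all 6 KMT2D columns, PRC1 and BIRC5 are darkest in KMT2D siRNA2, and MKI67 is red in all KMT2C columns of PANC1 and SUIT2.

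The KMT2D siRNAs differed from each other in 8 of the 45 members. Fitted per siRNA (10 residual degrees of freedom), siRNA1 had 6 members lower, against 2.18% of all genes, and siRNA2 had 13, against 4.94%. No member was called higher with either, against 387 and 837 of 21028 genes with siRNA1 and siRNA2. Between siRNA2 and siRNA1, 8 members were called, 5 lower and 3 higher with siRNA2, against 11.3% of all genes in either direction. CENPA and CDC25B were lower with each: CENPA at -0.79 (adjusted p = 0.00772) and -1.12 (adjusted p = 0.000166), and CDC25B at -0.73 (adjusted p = 0.00965) and -0.77 (adjusted p = 0.00324) for siRNA1 and siRNA2. TOP2A was at -0.94 (adjusted p = 0.0544) and -1.14 (adjusted p = 0.0101).

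PRC1, the cross-linker of antiparallel microtubules in the central spindle, had the largest change of any member against control. It was at 516, 409 and 239 CPM in the PANC1, COLO357 and SUIT2 controls and at 390, 367 and 242 CPM with KMT2D siRNA1. With siRNA2 it was at 85.2, 141 and 68.2 CPM. The siRNA2 values were thus under those of siRNA1 in every line. Its log2 fold change was -1.96 ± 0.18 (SE, adjusted p = 4.14e-07) with siRNA2 and -0.19 ± 0.18 (SE, adjusted p = 0.638) with siRNA1, and the difference was -1.76 ± 0.18 (SE, adjusted p = 1.08e-06). Exons of PRC1-AS1 and another gene overlap 58.4% of the exon length of PRC1, and whether counting used strand is not known here.

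BIRC5 (survivin), a passenger complex subunit, was also lowest with siRNA2 in each line. Its levels were 135, 50.7 and 46.7 CPM in the controls, 139, 57.7 and 59.1 CPM with siRNA1, and 35.2, 30.9 and 15.2 CPM with siRNA2. Only siRNA2 was below control in each line, with a log2 fold change of -1.38 (adjusted p = 7.1e-05). The difference between the siRNAs was -1.57 ± 0.20 (SE, adjusted p = 1.4e-05). ANLN differed by -0.68 ± 0.16 (SE, adjusted p = 0.00646), CCNB1 by -0.62 (adjusted p = 0.0146) and the checkpoint protein MAD2L1 by -0.54 (adjusted p = 0.0213), all lower with siRNA2.

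FOXM1, MKI67 and CENPE were lower with siRNA1 than with siRNA2. FOXM1 encodes a transcription factor of G2 genes, and MKI67 the Ki-67 protein that coats mitotic chromosomes. FOXM1 was at 59.1, 71.9 and 163 CPM in the PANC1, COLO357 and SUIT2 controls, at 34.4, 35.6 and 64.8 CPM with siRNA1, and at 79.5, 50.8 and 120 CPM with siRNA2. Only in PANC1 was siRNA2 above control. FOXM1 fell 2.07-fold with siRNA1 (log2 -1.05 ± 0.17 (SE), adjusted p = 0.000631), and siRNA2 exceeded siRNA1 by 0.89 ± 0.17 (SE, adjusted p = 0.00131). MKI67 was at 491, 767 and 1030 CPM in the controls, 415, 380 and 456 CPM with siRNA1, and 709, 521 and 1240 CPM with siRNA2. Its siRNAs differed by 0.88 ± 0.19 (SE, adjusted p = 0.00336), and CENPE by 0.66 ± 0.15 (SE, adjusted p = 0.00553). PLK1 fell with siRNA1 (-0.71, adjusted p = 0.0109) but its difference between siRNAs was not called (0.45, adjusted p = 0.0744).

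The other members called with siRNA2 were ANLN (-0.92), AURKB (-0.86), KIF2C (-0.83), CCNA2 (-0.57), CCNB1 (-0.55), NCAPH (-0.54), BUB1B (-0.52) and KIF11 (-0.52, adjusted p = 0.0279). Leaving out 1 library moved these counts. For siRNA1 the count was 1 without SUIT2 KMT2D siRNA1, 3 without the SUIT2 control and 11 without COLO357 KMT2D siRNA1, and only the call of FOXM1 held in all 18 such fits. For siRNA2 the count was 7 without the PANC1 control or without PANC1 KMT2D siRNA2, and ANLN, AURKB, BIRC5, CDC25B, CENPA, KIF2C and PRC1 held in all 18. Between the siRNAs, PRC1, BIRC5, ANLN and FOXM1 held in all 18, and the count was 5 without SUIT2 KMT2D siRNA1.

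**Figure D4:**
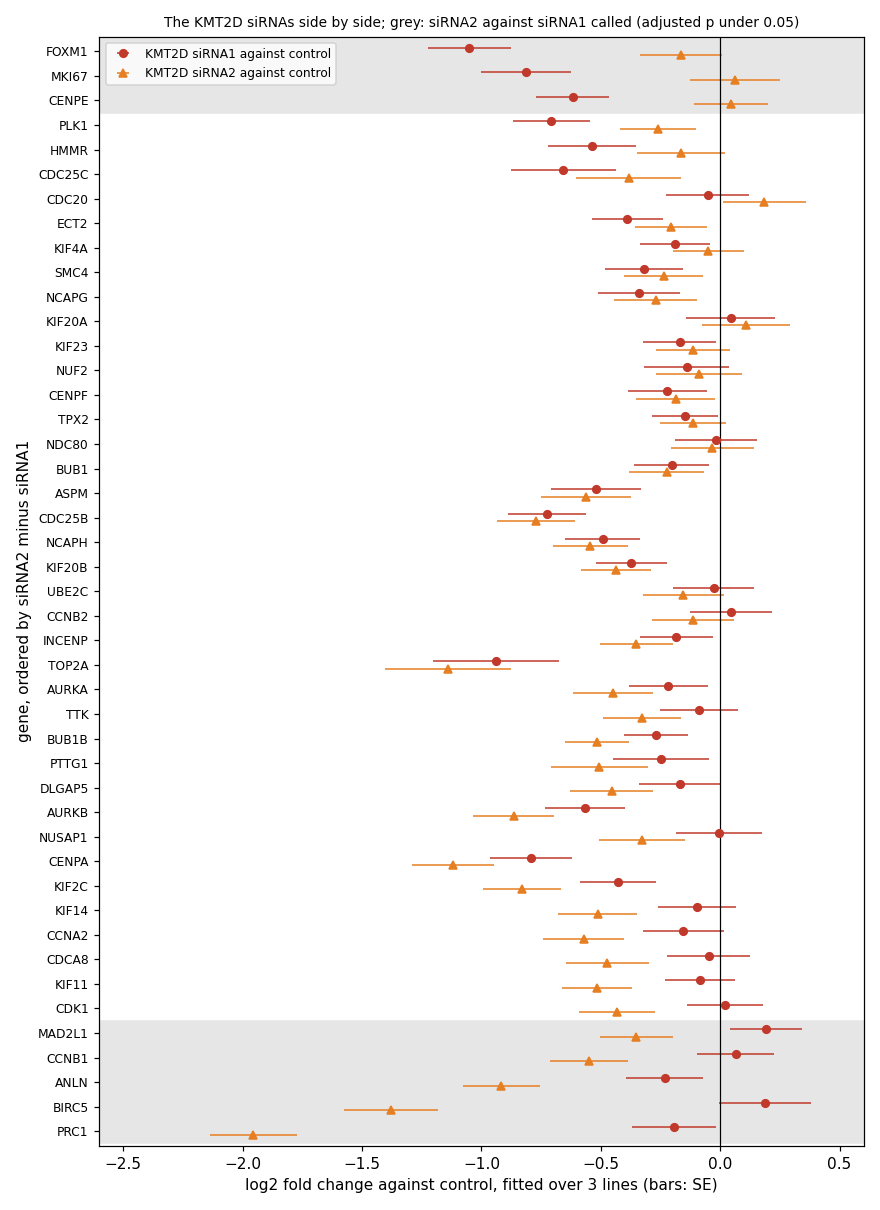
Log2 fold change against control of each member with KMT2D siRNA1 (circles) and siRNA2 (triangles), fitted over 3 lines, with bars for the SE, in the order of their difference. Grey bands mark the 8 members whose siRNAs differed. PRC1 and BIRC5 lie at -1.96 and -1.38 with siRNA2, and FOXM1 at -1.05 with siRNA1.

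KMT2C siRNA gave no called member over its 9 libraries, and 0.0143% of all genes were called lower. DESeq2 also called 0 members, and 4 members (CENPA, BUB1B, CENPF and ANLN) had an unadjusted p under 0.05, all below control. Of all 21028 genes, 871 were below and 1059 above control at that unadjusted p. In the fit 38 of 45 estimates were below 0, with a median of -0.17. That median depended on the controls: it was -0.07 without the PANC1 control, -0.10 without the COLO357 control and -0.29 without the SUIT2 control. CENPA stood at -0.42 ± 0.15 (SE, adjusted p = 0.372), ANLN at -0.40 ± 0.19 (SE) and the checkpoint protein BUB1B at -0.30 ± 0.12 (SE). These 3 were below the own control in all 9 KMT2C libraries, against 3.27% of all genes. With KMT2C siRNA1 to siRNA3, CENPA was at 49.4, 41.4 and 44.4 CPM in PANC1 (control 62). It was at 21.7, 22.4 and 18.2 CPM in COLO357 (control 25.6) and at 28.2, 26.3 and 29.4 CPM in SUIT2 (control 39.5). All KMT2C comparisons share these controls with the KMT2D comparisons.

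By siRNA, KMT2C siRNA2 had 4 members called lower, against 3.14% of all genes, and siRNA1 and siRNA3 had 0, against 0.504% and 0.143%. The 4 were AURKA (-0.78 ± 0.17 (SE), adjusted p = 0.00498), ANLN (-0.67 ± 0.16 (SE), adjusted p = 0.0132), CCNB1 (-0.54, adjusted p = 0.0495) and MAD2L1 (-0.51, adjusted p = 0.0485). AURKA, the kinase of centrosome maturation, was at 296, 251 and 219 CPM in the controls and at 141, 157 and 145 CPM with siRNA2. With siRNA1 it was at 294, 235 and 263 CPM, and with siRNA3 at 246, 181 and 223 CPM. The siRNA2 value was the lowest of the 3 KMT2C values in each line. In the library labelled PANC1 KMT2C siRNA2, KMT2C mRNA was not reduced (116% of control) and KMT2D stood at 102 CPM (control 27.4). MKI67 went the other way with siRNA2 (0.60, adjusted p = 0.0611), and DESeq2 called it higher. None of these calls held in all 18 fits that left out 1 library, and the count was 0 without the PANC1 control and 1 without the library labelled PANC1 KMT2C siRNA2. It was 2 without PANC1 KMT2D siRNA1 or any one of the SUIT2 KMT2C libraries, and 7 without PANC1 KMT2D siRNA2.

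With KMT2C siRNA1, 2 members had an unadjusted p under 0.05 in each direction, and DESeq2 called 0. Of all 21028 genes, 1153 were below and 1203 above control at that unadjusted p. UBE2C, the ubiquitin-conjugating enzyme of the anaphase-promoting complex, stood at 0.47 (adjusted p = 0.234). CDC20, an activator of that complex, stood at 0.40 (adjusted p = 0.372), and BUB1B was below control at -0.33 (adjusted p = 0.33). With siRNA3, 7 members had an unadjusted p under 0.05 below control and 1 above it, with 0 called by DESeq2. The counts over all 21028 genes were 1077 below and 1136 above control. CENPA was at -0.46 (adjusted p = 0.299), AURKB at -0.40 (adjusted p = 0.37) and MKI67 at 0.45 (adjusted p = 0.371).

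Between KMT2C siRNA2 and siRNA1, 5 members were lower with siRNA2, against 5.04% of all genes in either direction: AURKA (-0.84, adjusted p = 0.00369), UBE2C (-0.76, adjusted p = 0.00929), CDC20 (-0.72, adjusted p = 0.015), CCNB1 (-0.69) and MAD2L1 (-0.54). CDC20 was at 150, 76.4 and 118 CPM with siRNA1 and at 73.8, 66.7 and 59.8 CPM with siRNA2 in PANC1, COLO357 and SUIT2, with controls of 112, 66.2 and 81.3 CPM. In PANC1 and SUIT2 the control thus lay between the siRNAs. The call of AURKA held in all 18 fits that left out 1 library. The count was 1 without PANC1 KMT2C siRNA1 or without SUIT2 KMT2C siRNA1, 2 without the library labelled PANC1 KMT2C siRNA2 and 3 without SUIT2 KMT2C siRNA2. Between siRNA3 and siRNA1, 0 members were called by either tool, against 0.209% of all genes. At an unadjusted p under 0.05, 3 members were lower and 0 higher with siRNA3, beside 746 lower and 829 higher of all 21028 genes. Between siRNA3 and siRNA2, 0 were called by edgeR, against 2.73% of all genes, and 2 by DESeq2. At an unadjusted p under 0.05, 5 members were higher and 0 lower with siRNA3. Of all 21028 genes, 1649 were higher and 1524 lower at that unadjusted p. Without PANC1 KMT2D siRNA2 or COLO357 KMT2C siRNA2, edgeR called 1.

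Single KMT2C libraries differed by line. In PANC1 the members below control numbered 29, 41 and 38 of 45 with siRNA1, siRNA2 and siRNA3, and in COLO357 37, 39 and 39. In SUIT2 they numbered 8, 23 and 9, with median log2 changes of 0.22, -0.03 and 0.13. The SUIT2 medians were thus above 0 in 2 of 3 libraries, and the PANC1 and COLO357 medians lay between -0.52 and -0.13. The share of read pairs in no annotated feature was highest in COLO357 with KMT2C siRNA3 (30.36%) and in SUIT2 with KMT2C siRNA2 (24.99%) and siRNA3 (22.2%), and its part in these values was not tested. The difference between lines did not pass the test for any member.

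**Figure D5:**
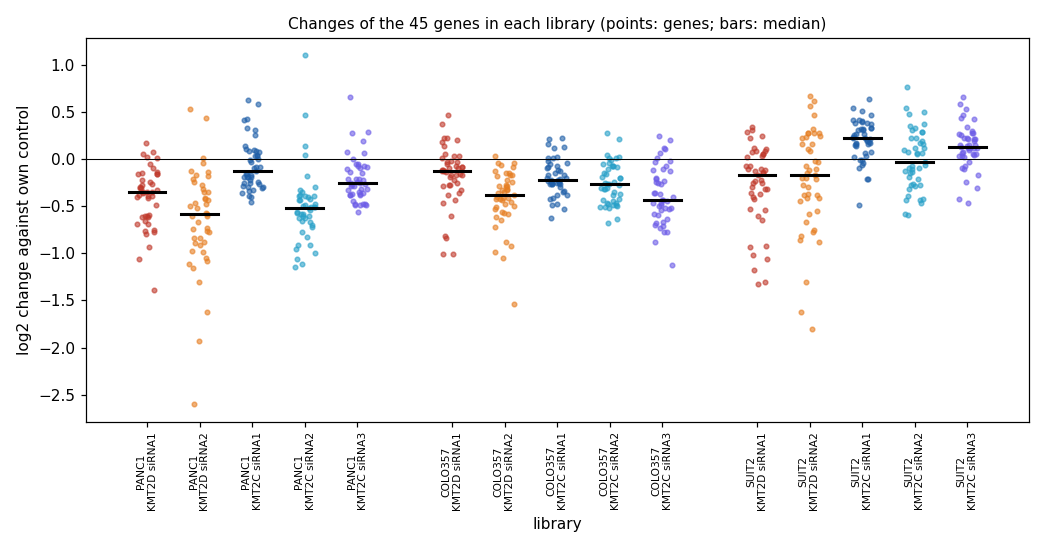
Log2 change of the 45 genes against the own control in each of the 15 libraries, 1 point per gene, with the median as a bar. The medians lie below 0 in all libraries of PANC1 and COLO357 and of SUIT2 with KMT2D siRNA, and at 0.22 and 0.13 in SUIT2 with KMT2C siRNA1 and siRNA3.

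In a direct contrast of the targets, 8 members were higher with KMT2C than with KMT2D siRNA, against 2.45% of all genes called higher. They were CDC25B (0.96 ± 0.12 (SE), adjusted p = 0.000288), TOP2A (0.85 ± 0.18 (SE), adjusted p = 0.0126), MKI67 (0.74), CENPA (0.52), AURKB (0.50), INCENP (0.49), NCAPH (0.48) and KIF2C (0.45). No member was called lower, against 572 of 21028 genes. CDC25B was at 43.8 to 47.8 CPM with KMT2D siRNA and at 64.3 to 85 CPM with KMT2C siRNA in PANC1. In COLO357 the ranges were 26.6 to 31.2 and 51.8 to 65.1 CPM, and in SUIT2 25.5 to 30.1 and 55.2 to 66 CPM. The targets did not overlap in any line. These are the values that the test itself used, and the share of all genes separated alike is not given here. With the siRNA as a random block in limma-voom, CDC25B was the 1 member of these still called, among 288 genes in all. In edgeR the calls of CDC25B, INCENP, NCAPH and TOP2A held in all 18 fits that left out 1 library. The count was 5 without COLO357 KMT2D siRNA2 or SUIT2 KMT2D siRNA1. Leaving out all KMT2C siRNA1 libraries gave 3 and all KMT2C siRNA3 libraries gave 2.

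No difference of a target's effect between lines passed the test, for KMT2D or for KMT2C, over any of the 21028 genes (0% called for each), by edgeR or, for the members, by DESeq2. No member had an unadjusted p under 0.05, for either target, beside 2.26% and 2.23% of all genes. The smallest p of a member was 0.136 for KMT2D (NDC80), and the next were those of DLGAP5 and TOP2A. For KMT2C it was 0.113 (TTK, a checkpoint kinase), followed by ASPM and KIF20A. NDC80 was below control with both KMT2D siRNAs in PANC1 (132 and 103 against 154 CPM) and above it in SUIT2 (56.1 and 72.5 against 47.4 CPM). This test had a single control in each line, and each KMT2D or KMT2C group pooled different siRNAs. Differences between siRNAs therefore counted in its spread, so the lack of calls does not show equal effects in the lines.

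The lines themselves differed in most members. Across the 6 libraries of each line, 33 members differed between COLO357 and PANC1 (29 lower and 4 higher in COLO357), against 70.5% of all genes. TPX2, the spindle assembly factor that activates AURKA, differed most. It ranged from 672 to 898 CPM in PANC1 (median 853), 168 to 208 CPM in COLO357 (median 178) and 539 to 701 CPM in SUIT2 (median 660). PANC1 and SUIT2 overlapped, and COLO357 lay below both. The log2 difference was -2.18 ± 0.10 (SE, adjusted p = 2.26e-15) between COLO357 and PANC1. BUB1 (-1.80) and CDCA8, borealin, (-1.54) followed, and HMMR (0.64), NCAPG (0.45) and ASPM (0.40) were higher in COLO357.

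SUIT2 differed from PANC1 in 29 members (24 lower and 5 higher), against 63.7% of all genes. Lower were foremost CENPF (-1.29), BIRC5 (-1.27) and NDC80 (-1.19), and higher FOXM1 (1.06 ± 0.12 (SE), adjusted p = 4.77e-08), MKI67 (0.77) and NCAPG (0.60). FOXM1 ranged from 34.4 to 79.5 CPM in PANC1, 35.6 to 71.9 CPM in COLO357 and 64.8 to 194 CPM in SUIT2. Its lowest SUIT2 value, with KMT2D siRNA1, was within the range of the other lines. Between SUIT2 and COLO357, 29 members differed (20 higher and 9 lower in SUIT2), against 64.1% of all genes. TPX2 (1.82), FOXM1 (1.18) and CDCA8 (1.06) led the higher ones, and HMMR (-0.62), PRC1 (-0.59) and ASPM (-0.56) the lower ones. The shares of members called were at or near those of all genes.

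Per kb of exon, TOP2A (182 CPM per kb, mean of 3 controls), ANLN (164) and TPX2 (162) were the highest members and CDC25C (9.52) and CDC25B (13) the lowest. TOP2A was at 273, 158 and 116 CPM per kb in the PANC1, COLO357 and SUIT2 controls, and TPX2 at 244, 57.8 and 184. TOP2A and TPX2 thus differed in order among the lines.

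Of 50 other mitotic genes, a list that excludes the members, 1 fell with KMT2D siRNA: CDKN3, a phosphatase that acts on CDK1 and CDK2 (-0.78 ± 0.17 (SE), adjusted p = 0.0206). With control, siRNA1 and siRNA2, CDKN3 was at 83.3, 48.3 and 36.3 CPM in PANC1. COLO357 had 72.9, 46.7 and 45.5 CPM, and SUIT2 had 105, 63.7 and 65.9 CPM. The list's median was -0.26, with 44 of 50 estimates below 0. By siRNA, 5 of the 50 fell and 1 rose with KMT2D siRNA1, and 10 fell with siRNA2. Of all genes, 0.504% were called lower with KMT2D siRNA, 2.18% with its siRNA1 and 4.94% with its siRNA2. With KMT2D siRNA1, 387 of all 21028 genes were called higher. With KMT2C siRNA edgeR called 0 of the 50, and the median was -0.14. At an unadjusted p under 0.05, 5 were below and 2 above control, beside 871 and 1059 of all 21028 genes. By siRNA, 8 fell and 1 rose with KMT2C siRNA2. With KMT2C siRNA2, 3.14% of all genes were called lower and 562 of 21028 higher.

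Of 25 G1/S and DNA replication genes, 4 fell with KMT2D siRNA, against 0.504% of all genes, with a median of -0.48 over the list. POLA1 and POLE, catalytic subunits of replicative polymerases, were at -1.06 and -0.69, the replicative helicase subunit CDC45 at -0.81 and the checkpoint adaptor CLSPN at -0.80. With KMT2C siRNA edgeR called 0, and the median was -0.10. At an unadjusted p under 0.05, 5 were below and 1 above control, beside 871 and 1059 of all 21028 genes. By siRNA, 7 of the 25 fell with KMT2D siRNA1 and 11 with KMT2D siRNA2, and 5 fell with KMT2C siRNA2 (CDC6, MCM7, MCM10, PCNA and RRM2). Of all genes, 2.18%, 4.94% and 3.14% were called lower with these siRNAs in the same order. Of 12 DREAM and MuvB subunits, 0 were called for either target by edgeR. At an unadjusted p under 0.05, 2 were below control for KMT2D and 1 for KMT2C, beside 1185 and 871 of all 21028 genes. By siRNA, MYBL2 (B-MYB) and RBL1 (p107) fell with KMT2D siRNA1, RBL2 (p130) with KMT2D siRNA2, TFDP2 with KMT2C siRNA1 and TFDP1 with KMT2C siRNA3. The share of all genes called lower with these siRNAs was 2.18%, 4.94%, 0.504% and 0.143% in turn. MYBL2 was higher with KMT2C than with KMT2D siRNA (0.60, adjusted p = 0.0133). Among 7 CDK inhibitors CDKN1B (p27), which restrains CDK2, rose with KMT2D siRNA (0.89 ± 0.21 (SE), adjusted p = 0.0339). Of all 21028 genes, 147 were called higher in that comparison. With control, siRNA1 and siRNA2, CDKN1B was at 52.7, 61.3 and 103 CPM in PANC1. COLO357 had 36.6, 54.6 and 66.4 CPM, and SUIT2 had 61.8, 141 and 176 CPM. Both siRNAs were above control in each line. With KMT2C siRNA edgeR called 0 of the 7, with 2 above control at an unadjusted p under 0.05, beside 1059 of all 21028 genes. By siRNA, CDKN1A (p21) rose with KMT2C siRNA1 (1.21, adjusted p = 0.0216) and CDKN1B with KMT2C siRNA2 (0.67, adjusted p = 0.017). With these siRNAs, 146 and 562 of the 21028 genes were called higher. CDKN1A was also higher with KMT2C than with KMT2D siRNA (0.82, adjusted p = 0.0175).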

How the data were processed

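Total RNA of 18 libraries was depleted of ribosomal RNA and made into stranded libraries, per the labels' protocols. Per the submitters' processing notes, the authors' tools were HTSeq, TopHat2, edgeR and FastQC, on hg19, without versions. What was deposited is an unnormalized count per gene and library. The annotation release and strand setting were not given in the sources used. Entries that name no gene made up 32.98% to 53.39% of the pairs and were left out of library sizes and tests. Symbols were matched through GENCODE v29. Exon lengths and overlaps came from GENCODE v29 on GRCh38, while counting was on hg19, so levels per kb are approximate.

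From these, edgeR 4.0.16 (quasi-likelihood F test, TMM, R 4.3.3) kept 21028 genes (minimum count 10, minimum total 15) and tested all of them with Benjamini-Hochberg adjustment, calling at an adjusted p under 0.05. The targets were compared with line and target as terms (13 residual degrees of freedom), single siRNAs and lines with line and siRNA (10), and differences between lines with 9 groups (9), where the single control library of a line was taken to vary as the rest. SE was taken as the size of a log2 fold change divided by √F. Library changes used a prior count of 2. The line and target fit was tested on simulated data, for KMT2D siRNA against control only. Those counts were drawn independently per library, without an siRNA effect shared across lines, so such an effect was not covered. Libraries of one group differed beyond sampling noise (chi-square per gene 26.9 to 143). Depth was 14205640 to 32115894 counts.

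Alternatives were DESeq2 1.42.0, its size factors, library size only, no low-count filter, limma 3.58.1 with and without a block for the siRNA, leaving out each library and leaving out each siRNA. Members and lists were chosen with earlier results of these data known. Every member could be named. Given in full were members called for a target, the member with the smallest p for KMT2D siRNA in each role, the 3 smallest p per siRNA, the largest called differences between siRNAs and between lines (up to 3 per direction), the 3 smallest p per target for differences between lines, and called genes of the other lists. Markers of other cell types are given as ranges, and endothelial markers were at most 28.3 CPM summed. All mitochondrially encoded mRNAs were listed at 0.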

Additional observations from a re-analysis of the deposited data

Results flagged for a closer look

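In 46 groups of libraries, 3 libraries lay far from the rest of their group by Dixon's test at the 95% level. Each group was the 6 KMT2D or 9 KMT2C libraries of a member or of the median. Only members called in a comparison of siRNAs or targets were searched, not all 45. Chance alone would flag about 1 in 20 groups. AURKA changed by -1.05 (log2, against the own control) in PANC1 KMT2D siRNA2, while the next lowest of the 6 KMT2D libraries was at -0.39. CENPA changed by -0.28 in COLO357 KMT2D siRNA1, while the next highest was at -0.92. BIRC5 changed by -0.56 in the library labelled PANC1 KMT2C siRNA2, while the next lowest of the 9 KMT2C libraries was at -0.12.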

How the results depend on the processing

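No result reversed in sign under any alternative. With KMT2D siRNA against control, 3 members were called, and 5 without the low-count filter, 7 with DESeq2, 5 with limma-voom without a block, 9 without all KMT2D siRNA1 libraries and 5 without all KMT2D siRNA2 libraries. Replicate numbers name the same siRNA in each line, and the labels do not say whether they also mark a batch. Deviations of libraries with the same number correlated at 0.056 to 0.379, under 0.1 for 1 pair. With the siRNA as a replicate block, 1 member was called for KMT2D against control (CENPA) and 1 for KMT2C against KMT2D (CDC25B). With KMT2C siRNA2, 4 were called, all lower. There were 8 without the filter and 9 with DESeq2, each with MKI67 as the 1 called higher. Between KMT2D siRNAs, library size alone gave 13, and between KMT2C siRNA3 and siRNA2 DESeq2 gave 2. KMT2C against KMT2D gave 3 without all KMT2C siRNA1 libraries and 2 without all KMT2C siRNA3 libraries. The cause was not tested. Leaving out 1 library gave 0 to 5 members for KMT2D against control, 1 to 11 for KMT2D siRNA1, 7 to 14 for KMT2D siRNA2, 0 to 7 for KMT2C siRNA2, 5 to 8 for KMT2C against KMT2D, 5 to 10 between KMT2D siRNAs, 1 to 6 between KMT2C siRNA2 and siRNA1, and 0 to 1 between KMT2C siRNA3 and siRNA2. The medians were -0.39 to -0.20 for KMT2D and -0.29 to -0.07 for KMT2C. The interaction fits were not run without a control library.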
